A study of Saccharomyces cerevisiae with 4 samples.

Results

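The genes for breaking down aromatic amino acids and for forming acetate esters in budding yeast, Saccharomyces cerevisiae, were described for their response to rapamycin with and without the protein phosphatase Ptc1. There were 7 such genes of the 6176 on the arrays: the activator gene ARO80 (YDR421W), the aminotransferase genes ARO8 (YGL202W) and ARO9 (YHR137W), the decarboxylase gene ARO10 (YDR380W), ARO5 (YGL117W), and the alcohol acetyltransferase genes ATF1 (YOR377W) and ATF2 (YGR177C). They were chosen by name, with their measured rapamycin ratios on these arrays and the strain differences of ARO10, ARO5 and ATF2 already known, so the values below are a description and carry no test. Of the 7, 6 had a value on every array. ARO80 had none on any array, as was the case for 584 genes, and its own response is therefore not analysed here.

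Each array compared cells of a strain exposed to rapamycin at 200 ng/ml for 1 h with cells of that strain given only the ethanol and Tween-20 vehicle, the mock treatment. The strains were the wild type and ptc1, which lacks Ptc1, and the labels give no further allele or strain background. Both strains were grown at 28 °C in YPD rich medium to an A660 of 0.5. There were 4 two-colour arrays, 2 for each strain, described as a dye swap of each RNA sample, so each strain was taken as 1 RNA pair, with no second culture. The ± of a strain mean is the SD of its 2 arrays and measures technical spread, the ± of a strain difference combines both SDs, and no p-value was calculated.

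Yeast takes nitrogen from phenylalanine, tyrosine and tryptophan through the Ehrlich pathway. An aminotransferase removes the amino group, a decarboxylase turns the remaining keto acid into an aldehyde, and the aldehyde is reduced to a fusel alcohol such as phenylethanol or oxidised to the acid. Alcohol acetyltransferases can join such alcohols to acetyl-CoA to give aroma esters. Aro80 is a zinc cluster activator that responds to aromatic amino acids and switches on ARO9 and ARO10, and factors of the GATA family, which are held back by the growth kinase complex TORC1, act on these genes as well. Rapamycin inhibits TORC1.

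Each value is a log2 ratio, taken as rapamycin divided by mock. The deposited table states neither its base nor its direction. The direction is the likely one because the design names treated against mock-treated cells and because GAP1, long known to be induced by rapamycin, has positive values. Risen and fallen are used for a mean of 1 or more in size (2-fold) whose arrays had 1 sign. On single arrays 4985 to 5389 genes had a value, the array medians lay between −0.004 and 0.131, and the SD between arrays had a median over genes of 0.155 for the wild type and 0.277 for ptc1. For PTC1 (YDL006W) itself the wild-type arrays gave 0.003 and −0.525, and the ptc1 arrays gave no value. The labels contradict themselves on the dyes of the ptc1 arrays, where title and dye field disagree, so a difference between those arrays cannot be assigned to a dye orientation.

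In wild-type cells the breakdown genes rose and the ester genes fell. All 4 measured breakdown genes, ARO5 counted among them, rose, by 2.40-fold to 27.4-fold, and both acetyltransferase genes fell. ARO5, of unknown function, is counted there by its name only and had the 27.4-fold rise. The next highest was ARO10 at 16.6-fold. Over all genes 13.8% rose and 15% fell in the wild type. Because the group was picked with these values known, nothing is read from its counts against those shares. In ptc1, 3 of the 4 breakdown genes rose and both ester genes fell, where 10.6% of all genes rose and 12.4% fell. In these bulk cultures a lower ratio from fewer cells holding a transcript and one from less of it per cell cannot be told apart.

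**Figure D1:**
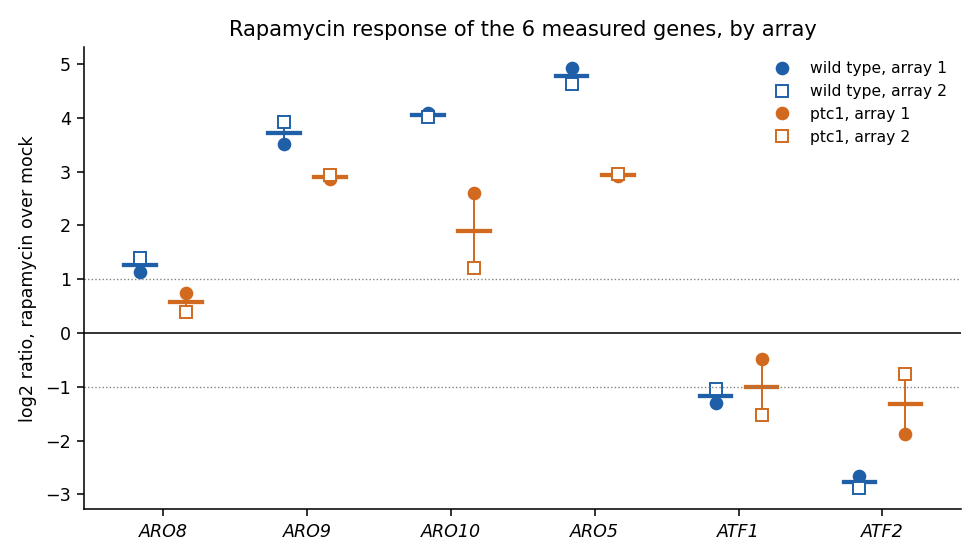
Log2 ratio of rapamycin over mock (vertical axis) for the 6 measured genes on each array, with the wild type in blue and ptc1 in orange. Circles are array 1, squares are array 2, horizontal bars are strain means and dotted lines mark the 2-fold size; ARO10 spans 1.20 to 2.60 in ptc1 against 4.01 to 4.09 in the wild type.

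Aminotransferases open the pathway. ARO9 encodes aromatic aminotransferase II, the inducible enzyme of breakdown, and its log2 ratios were 3.52 and 3.92 on the wild-type arrays and 2.86 and 2.93 on the ptc1 arrays. Both ptc1 values lay below both wild-type values, and the gene rose in each strain, by 3.72 ± 0.28 or 13.2-fold in the wild type and by 2.90 ± 0.05 or 7.45-fold in ptc1. The difference between strains, −0.82 ± 0.29, was below the size of 1 used to call one, although it reached −1.02 without wild-type array 1.

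ARO8 encodes aromatic aminotransferase I, which also serves the last step of phenylalanine and tyrosine synthesis. The wild-type arrays gave log2 ratios of 1.13 and 1.39, and the ptc1 arrays 0.75 and 0.40. It rose in the wild type, by 1.26 ± 0.19, while its ptc1 mean of 0.57 ± 0.25 was too small for a call. The strains did not overlap here either, and the difference of −0.69 ± 0.31 was again below the size used for a call. Within each array ARO9 responded more than ARO8, by 2.46 ± 0.09 on the log2 scale in the wild type and by 2.32 ± 0.30 in ptc1. The gap between the aminotransferase genes differed between strains by less than the spread of the arrays.

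ARO10 encodes phenylpyruvate decarboxylase, which acts on the keto acids made by these aminotransferases. It stood at 4.09 and 4.01 on the wild-type arrays and at 2.60 and 1.20 on the ptc1 arrays. The wild-type arrays were close to each other, the ptc1 arrays were far apart, and the strains did not overlap. The wild-type rise was 4.05 ± 0.06 or 16.6-fold. In ptc1 the mean was 1.90 ± 0.99, and an SD at least this large was seen in 1.26% of genes there. The ptc1 value is 1.20 without ptc1 array 1 and 2.60 without ptc1 array 2, so the size of the ptc1 response is loosely known. The difference between strains was −2.15 ± 0.99 and ran from −2.89 to −1.40 over the 4 pairs of a ptc1 and a wild-type array.

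ARO5 is a gene of unknown function placed with this pathway by its name in the reference table. Wild-type log2 ratios were 4.92 and 4.63, against 2.92 and 2.95 in ptc1. The arrays of each strain lay close together and the strains were well apart. It had the largest response of the group in the wild type, 4.78 ± 0.20 or 27.4-fold, and stood at 2.93 ± 0.02 or 7.64-fold in ptc1. The difference of −1.84 ± 0.20 lay between −1.998 and −1.69 for single pairs of arrays, the tightest range among the 3 genes called as differing.

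The order of the breakdown genes was not the same in the strains. In the wild type ARO5 responded most, then ARO10, ARO9 and ARO8, and no neighbours in this order overlapped on their arrays, although ARO10 and ARO9 were 0.33 apart, little more than the SD of ARO9. In ptc1 ARO5 and ARO9 overlapped, with means 0.04 apart, and ARO10 lay below both. Set against ARO9 on the same array, ARO10 was differed by 0.58 and 0.09 in the wild type and by −0.26 and −1.73 in ptc1. Among all genes of the wild type ARO5, ARO10 and ARO9 held ranks 6, 15 and 25 from the highest ratio. Their ranks in ptc1 were 30, 122 and 32.

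ATF1 encodes the main alcohol acetyltransferase for acetate esters. The gene stood at −1.30 and −1.04 on the wild-type arrays, whereas ptc1 gave −0.49 and −1.52. One ptc1 array lay above and the other below both wild-type arrays, so the strains overlapped. ATF1 fell by 1.17 ± 0.18 on the log2 scale in the wild type and by 1.01 ± 0.73 in ptc1, where without ptc1 array 2 it stood at −0.49 and would not be called. The difference was 0.16 ± 0.75, and it changed sign with the array left out, from −0.35 without ptc1 array 1 to 0.68 without ptc1 array 2.

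ATF2 encodes the second acetyltransferase, which also acetylates sterols. It stood at −2.66 and −2.89 on the wild-type arrays, against −1.88 and −0.77 in ptc1. Both ptc1 values were nearer to 0 than both wild-type values, and they differed widely from each other. The gene fell 6.83-fold in the wild type (−2.77 ± 0.16) and 2.51-fold in ptc1 (−1.33 ± 0.78). Without ptc1 array 1 the ptc1 value was −0.77 and no longer a call. The strain difference was 1.45 ± 0.80, and without ptc1 array 2 it was 0.89, also below the size for a call.

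Paired on the same array, ATF1 stood 1.36 and 1.85 above ATF2 in the wild type, and 1.39 above on ptc1 array 1. On ptc1 array 2 the order was turned, at −0.75. The acetyltransferase genes therefore kept their order on 3 arrays and not on the remaining one.

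The question that the ptc1 arrays address is whether the response to rapamycin depends on Ptc1. Strains were called different at a gap of 1 or more between their means, provided that the 4 possible array pairs across strains all pointed the same way. ARO10 and ARO5 were lower and ATF2 was higher by this rule, which 0.925% of the 4650 genes measured on all arrays met as lower and 0.989% as higher. These 3 were among the values on which the group was picked. Without any condition on size, the strains did not overlap for 5 of the 6 genes, 4 of them lower and ATF2 higher in ptc1. Of all genes 16.5% were apart with ptc1 lower and 18.2% with ptc1 higher. Because mock-treated cells of each strain are the denominator, a strain difference may come from them as well as from the treated cells.

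**Figure D2:**
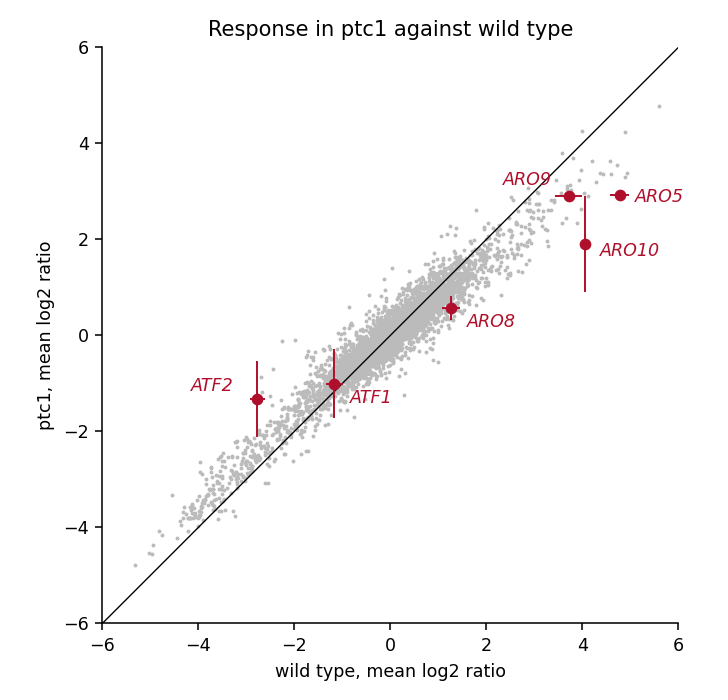
Mean log2 ratio in ptc1 (vertical axis) against the wild type (horizontal axis) for the 4650 genes measured on all arrays in grey and the 6 genes in red, with error bars of 1 SD over 2 arrays and a line of equal response. ARO10 and ARO5 lie below the line on the right, ATF2 lies above it on the left, and ATF1 lies near it at −1.17 and −1.01.

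Read as a share of the wild-type log2 response, the ptc1 response was 45.5% for ARO8, 47.0% for ARO10, 61.4% for ARO5 and 77.9% for ARO9. The median over the 643 genes that rose in the wild type and were measured on all arrays was 80.0%. For the ester genes the share was 86.1% in ATF1 and 47.8% in ATF2, beside a median of 85.1% over the 697 genes that fell. Picking genes by their wild-type mean favours smaller shares in ptc1, for these medians and for the 6 genes. ARO10, ARO5 and ATF2 were also picked with their strain differences known, unlike the genes behind the medians. Nothing is read from how far the shares of ARO10, ARO5 and ATF2 lie from the medians. The shares of the genes whose ptc1 arrays disagreed rest on single arrays. Without ptc1 array 1 they were 130.1% for ATF1, 27.8% for ATF2 and 29.7% for ARO10, and without ptc1 array 2 they were 42.1%, 67.9% and 64.3%. The share of ARO8 also moved, from 31.4% without ptc1 array 1 to 59.5% without ptc1 array 2.

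The arrays of ptc1 disagreed for some of these genes and not for others. Array 2 minus array 1 was −1.40 for ARO10, −1.03 for ATF1 and 1.11 for ATF2, but 0.03 for ARO5 and 0.07 for ARO9. SDs as large as those of ATF1 and ATF2 were seen in 7.45% and 5.73% of genes in ptc1. For ARO5 and ARO9, in contrast, 95.9% and 89.8% of genes had an SD as large or larger. ARO10 and ATF2 were nearer to 0 on array 2 whereas ATF1 was farther from it. In the wild type the widest gap between arrays was 0.40, in ARO9.

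**Figure D3:**
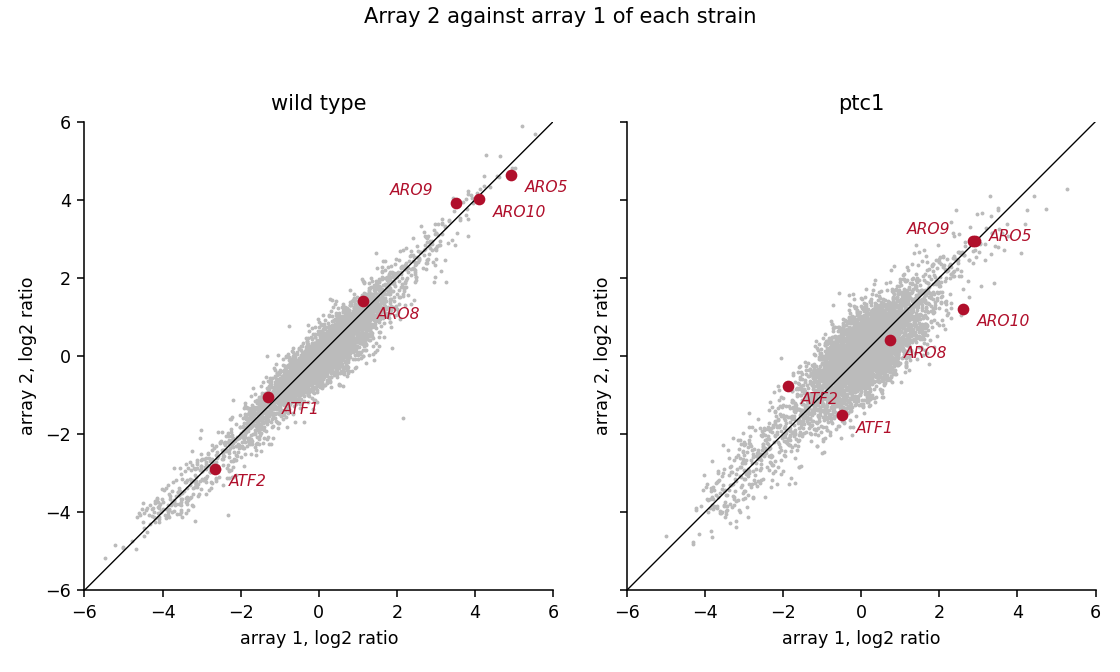
Log2 ratio on array 2 (vertical axes) against array 1 (horizontal axes) in the wild type (left) and ptc1 (right), with all genes in grey, the 6 genes in red and a line of equality. In the wild type all 6 lie near the line, while in ptc1 ARO10 and ATF1 lie below it and ATF2 above it, by 1.03 to 1.40 in size.

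Other genes around this pathway were described from 6 lists holding 56 genes. In the wild type 18 of the 50 measured members rose and 5 fell, where 13.8% of all genes rose and 15% fell, and the median was 0.57 beside 0.07 over all genes. In ptc1 13 of 52 rose and 10 fell, where 10.6% of all genes rose and 12.4% fell, and the median was 0.26 beside 0.08. None of the 48 members measured on all arrays met the rule for a strain difference, where 0.925% of all genes were lower and 0.989% higher by it. The ratio was lower in ptc1, whatever the size, for 34 of the 48 and for 50.4% of all genes. The lists held more risen than fallen genes in the wild type, which bears on this count. Over all genes the median strain difference was −0.31 for the 643 that rose there and 0.35 for the 697 that fell.

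The list of other fusel alcohol enzymes was mixed, with 4 of 18 higher and 1 lower in the wild type and 4 of 20 higher and 6 lower in ptc1. The shares over all genes were 13.8% and 15% in wild-type cells and 10.6% and 12.4% in ptc1. Its branched-chain aminotransferase genes, which start the same pathway for leucine, isoleucine and valine, went opposite ways. BAT2, the cytosolic enzyme, rose by 3.77 ± 0.03 in the wild type and 3.02 ± 0.22 in ptc1. BAT1, the mitochondrial enzyme used in synthesis, had −1.60 ± 0.23 and −1.45 ± 0.11, a fall in both strains. The pyruvate decarboxylase genes of this list and THI3 showed no rise. In the wild type PDC1 stood at −0.67 ± 0.93, PDC5 at −0.68 ± 0.22, PDC6 at −0.79 ± 0.24 and THI3 at −0.61 ± 0.22. In ptc1 PDC1 (−1.02 ± 0.66) and PDC6 (−1.09 ± 0.13) fell. Of these genes and ARO10, only ARO10 rose, but it was picked with its ratio known, so no contrast with them is drawn. The sequences of PDC1, PDC5 and PDC6 are close copies, so shared signal makes each value uncertain.

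The aldehyde is reduced by alcohol dehydrogenases or oxidised by aldehyde dehydrogenases. No measured alcohol dehydrogenase gene, nor GRE2, passed the 2-fold rule in the wild type, where their means ran from −0.90 in ADH2 to 0.66 in ADH3. In ptc1 ADH1 fell, with values of −0.24 and −2.01 on its arrays, and so did ADH2 at −1.04 ± 0.37; these genes too are similar in sequence. The aldehyde dehydrogenase genes ALD2 (1.95 ± 0.47), ALD3 (2.06 ± 0.11) and ALD4 (1.07 ± 0.11) rose in the wild type. They also rose in ptc1, at 2.25 ± 0.14, 2.04 ± 0.16 and 1.10 ± 0.53. ALD6 went the other way, with −0.80 ± 0.30 in wild-type cells and a fall to −1.06 ± 0.49 in ptc1, and ALD5 had no wild-type mean and −0.10 ± 0.46 in ptc1. ALD2 and ALD3 are near-identical neighbours and may share signal.

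Among the other ester enzymes EHT1, an acyltransferase gene for ethyl esters of fatty acids, rose by 1.43 ± 0.19 in the wild type and by 1.11 ± 0.03 in ptc1. Its relative EEB1 had 0.70 ± 0.01 and 0.72 ± 0.70, and IAH1, whose product hydrolyses acetate esters, had 0.45 ± 0.02 and 0.52 ± 0.09. None of these 3 fell in either strain. Falls were uncommon among all measured genes, at 15% for wild-type cells and 12.4% for ptc1. The acetyltransferase genes were picked with their ratios known, and no contrast with them is drawn from 3 genes.

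Of the 9 listed uptake and export genes, 7 had a wild-type mean, and 3 rose and 3 fell, where 13.8% and 15% of all genes did. In ptc1 3 of 7 rose and 2 fell, beside 10.6% and 12.4% of all genes. Permease genes for aromatic and branched-chain amino acids that serve rich medium fell in the wild type, with TAT1 at −2.92 ± 0.30, TAT2 at −1.07 ± 0.37 and BAP3 at −1.36 ± 0.32. Their relative BAP2 had no wild-type value and −0.905 ± 0.27 in ptc1, not a call. In ptc1 TAT1 (−2.52 ± 0.40) and BAP3 (−1.33 ± 0.14) fell, and TAT2 had −0.74 ± 0.69. The broad permease genes GAP1 and AGP1 rose in both strains, GAP1 by 5.60 ± 0.09 in the wild type and 4.77 ± 0.69 in ptc1. The values of AGP1 were 2.89 ± 0.25 and 2.33 ± 0.33. ESBP6, a gene of the monocarboxylate permease family, rose by 1.94 ± 0.35 and 1.75 ± 0.02. PDR12 had 0.86 ± 0.05 in the wild type, not a call, and no ptc1 value, and GNP1 had a single wild-type value, −1.65.

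Of the nitrogen regulators GAT1, a GATA activator gene, rose in both strains (1.34 ± 0.33 in the wild type and 1.41 ± 0.02 in ptc1). GLN3, the gene of the other GATA activator, had 0.82 ± 0.18 and 0.94 ± 0.46, and the inhibitor gene URE2 had 0.35 ± 0.43 and 0.30 ± 0.14. GCN4, whose product activates amino acid synthesis genes, had 0.82 ± 0.04 and 0.52 ± 0.02. GZF3, a gene of a GATA repressor measured on 1 wild-type array, rose in ptc1 (1.08 ± 0.40), and DAL80 had no value on any array. The strain differences of the GATA activator genes were 0.08 for GAT1 and 0.12 for GLN3, within their array spread.

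Tryptophan can also leave through the kynurenine pathway. Of its 6 listed genes 2 rose in each strain, beside 13.8% of all genes in the wild type and 10.6% in ptc1. These were BNA1 and BNA3, BNA1 with 2.88 ± 0.04 in the wild type and 1.98 ± 0.34 in ptc1. BNA3 had 1.61 ± 0.20 and 1.15 ± 0.07. BNA2, whose enzyme takes the first step from tryptophan, stood at 0.31 ± 0.06 and 0.29 ± 0.13. BNA4 (−0.21 ± 0.08 and −0.27 ± 0.10), BNA5 (0.06 ± 0.11 and 0.22 ± 0.67) and BNA6 (0.98 ± 0.07 and 0.65 ± 0.23) were not called either. In the synthesis of aromatic amino acids 7 of 12 genes rose and ARO7, the chorismate mutase gene at the branch to phenylalanine and tyrosine, fell in the wild type (−2.15 ± 0.13), where 13.8% of all genes rose and 15% fell. In ptc1 1 of 11 rose, ARO1 at 1.03 ± 0.18, while ARO7 (−1.75 ± 0.35) and ARO4 (−1.38 ± 0.19) fell, beside 10.6% and 12.4% of all genes. Of the 11 synthesis genes measured on all arrays 10 were lower in ptc1, as were 50.4% of all genes, and the list's median strain difference was −0.49 beside −0.0035 over all genes. All genes are an unlike reference here, because most of this list rose in the wild type. The 643 genes that rose there and were measured on all arrays had a median strain difference of −0.31. Whether the list differs from such genes was not tested.

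**Figure D4:**
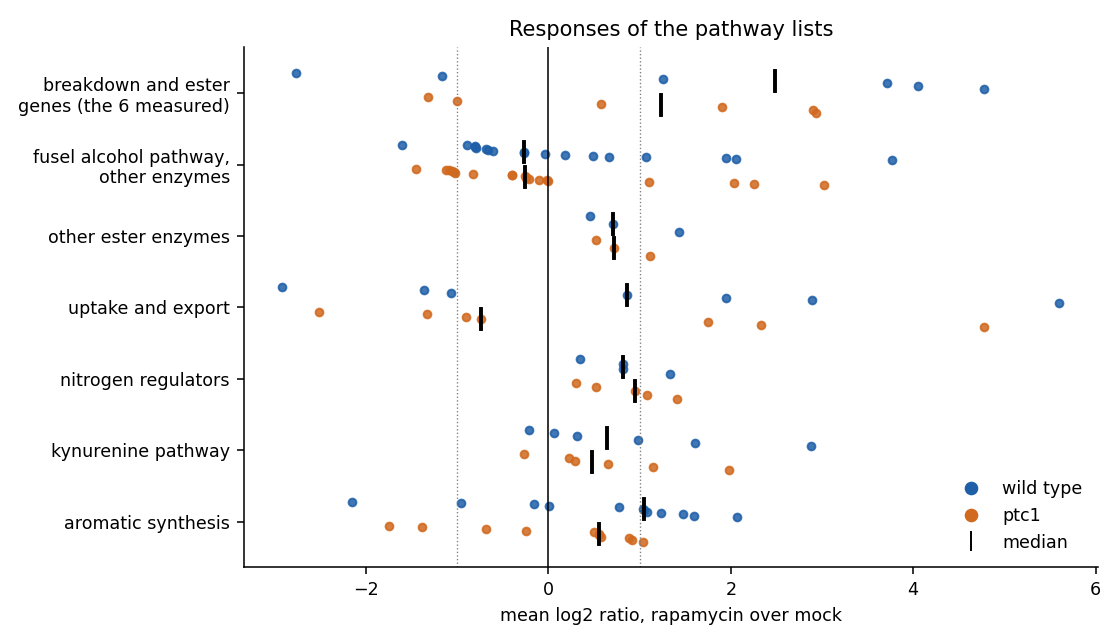
Mean log2 ratio of rapamycin over mock (horizontal axis) for the 6 measured genes and for 6 lists of genes around the pathway, with the wild type in blue and ptc1 in orange. Each point is a gene, black bars are medians and dotted lines mark the 2-fold size; in the list of other fusel alcohol enzymes the highest point is BAT2 at 3.77 in the wild type.

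The genes nearest to each of the 6 were found by the root mean square difference of their log2 ratios over the 4 arrays. For ARO9 they were BAT2 (0.227), GDH3 (0.243), a glutamate dehydrogenase gene, and TFS1 (0.256), a gene of a carboxypeptidase inhibitor. The genes nearest to ARO10 were TSA2 (0.403), ARG1 (0.538) and SRL3 (0.614), and those nearest to ARO5 were HSP12 (0.353), TMT1 (0.384) and ARG4 (0.387). ARG1 shared the wide gap between the ptc1 arrays, with 3.39 and 1.86 against 2.60 and 1.20 in ARO10. Because the genes were picked on all 4 arrays, likeness on the ptc1 arrays follows from the choice and is no separate finding.

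ARO8 lay closest to SFB2 (0.109), ATG41 (0.113) and TIP1 (0.118). ATF1 lay closest to YOL029C (0.115), RTN1 (0.128) and GSP1 (0.132). They had the same order of the ptc1 arrays, GSP1 with −0.44 and −1.70, which again follows from picking them on those arrays. ATF2 had YGR079W (0.354), PXR1 (0.426) and DBP8 (0.449) as its nearest genes, and none of these matched its ptc1 value of −0.77 on array 2, the closest being YGR079W at −1.16.

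Neighbouring genes mostly had smaller ratios. Of the 14 protein-coding genes directly beside the 7 in the order of the R64 reference, 9 were measured on both wild-type arrays, and their median was 0.35. SDH6, beside ARO10, rose in both strains (2.05 ± 0.21 in the wild type and 1.91 ± 0.15 in ptc1). Its strain difference of −0.14 was within the array spread, unlike that of ARO10. YRA1, on the other side of ARO10, had no wild-type value and fell in ptc1 (−1.01 ± 0.14). AMF1, beside ATF1, fell in the wild type by 1.02 ± 0.32 on the log2 scale and stood at −0.24 ± 0.21 in ptc1. The neighbours of ARO9 were SPL2 at 0.67 ± 0.25 and YHR138C at 0.66 ± 0.22 in the wild type, and those of ARO8 were KEX1 at 0.35 ± 0.41 and MCM6 at −0.50 ± 0.35. CDC20, on one side of ARO5, had 0.06 ± 0.07, and PBP1, on one side of ATF2, had −0.12 ± 0.05. None of the 9 neighbours measured on all arrays met the rule for a strain difference. Over all genes 0.925% met it as lower and 0.989% as higher, so nothing is read from this count.

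**Figure D5:**
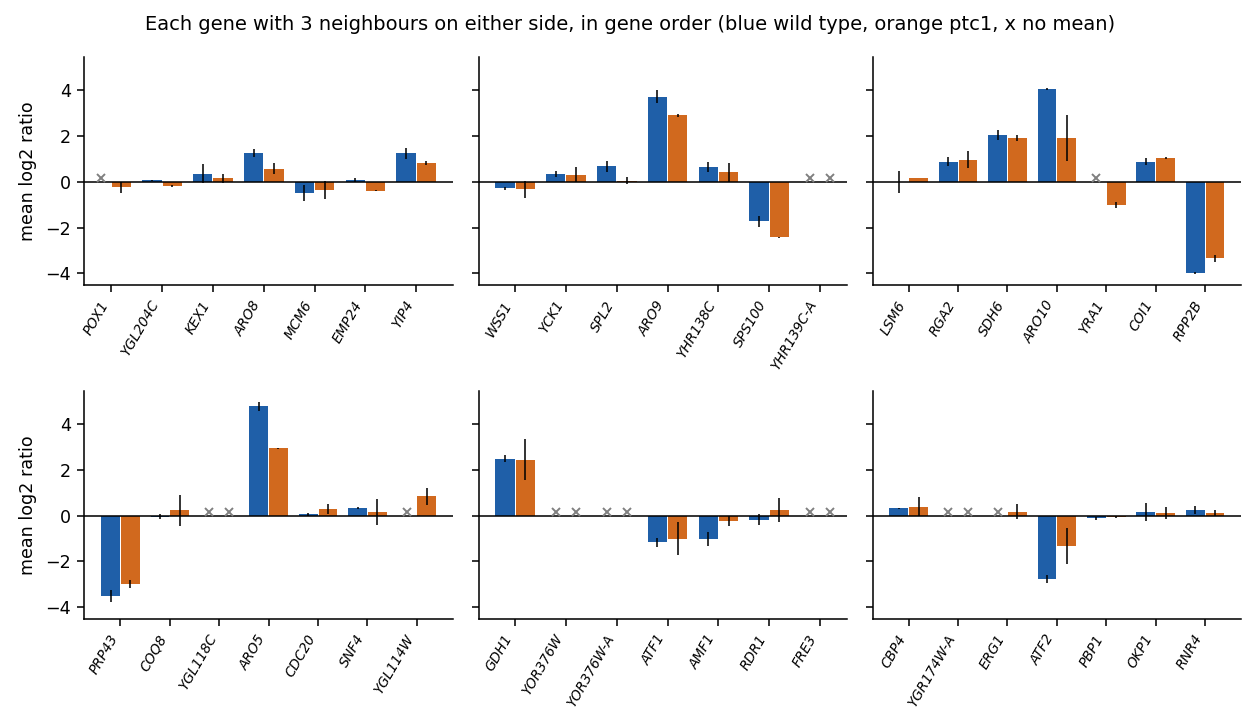
Mean log2 ratio of rapamycin over mock (vertical axes) for each of the 6 genes in the middle of its panel and 3 protein-coding genes on either side in reference order. Blue bars are the wild type, orange bars are ptc1, error bars are 1 SD over 2 arrays and a cross marks a strain without a mean; the bar of ARO9 at 3.72 stands beside neighbours at 0.67 and 0.66 in the wild type.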

How the data were processed

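Two-colour arrays of rapamycin-treated against mock-treated cells were analysed, 2 for each of 2 strains. Per the labels, spots were dropped by the authors at diameters under 120 µm or Cy3 and Cy5 intensities under 150 units, and the ratio of medians served for normalisation. Their deposited table has 6212 rows, and its values were taken as log2 ratios. How images were quantified, backgrounds corrected and spots averaged, and which log base was used, is not given in the sources used here.

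Rows were named through the R64 reference table, 5662 by locus tag and 52 by synonym, and rows of a gene were averaged to 6176 genes. Calls used a mean of at least 1 in size with arrays of 1 sign. The genes, lists and rules were chosen with earlier results of these data known: named are the 7 genes, list members, the 3 nearest genes, direct neighbours and PTC1. The calling rules were run on simulated data with planted wild-type rises and strain differences well beyond the size for a call. Spread there was equal for all genes of a strain, so the run says nothing about genes near that size or with widely differing ptc1 arrays. Python 3.11.15, pandas 2.3.3 and NumPy 2.4.6 were used. Alternatives covered centring, scaling, thresholds, signs, repeated rows and single arrays. The number of arrays limits the precision.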

Additional observations from a re-analysis of the deposited data

How the results depend on the processing

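No paired analysis was possible because each strain has 1 pair of RNA samples and its arrays repeat that pair. Centring each array on its median, scaling all arrays to equal spread or using the first row of a gene left every direction and call of the 6 genes as it was. Values that moved by more than the array SD were those of ARO10 in the wild type (3.99 centred, 3.85 scaled), ARO5 in the wild type (4.55 scaled) and in ptc1 (2.89 centred, 2.995 scaled), ARO9 in ptc1 (2.96 scaled) and the strain difference of ARO5 (−1.56 scaled). Of the genes nearest to each of the 6, 17 of 18 were the same after scaling. The counts follow the fold chosen. At 1.5-fold the wild type had 2402 called genes, ptc1 had 2218, and 431 differed between strains, in place of 1378, 1198 and 89 at 2-fold. At that size 38 of the 50 list genes measured in the wild type were called, where 2402 of 4796 genes were. As differing, 5 of 48 list genes were called, where 431 of 4650 genes were, so nothing is read from that count. Of the 6 genes, which were picked with their values known, 5 differed. At 3-fold the counts over all genes were 700 of 4796 (wild type), 566 of 5221 (ptc1) and 7 of 4650 (strain difference). Those of list genes were 13 of 50 (wild type) and 9 of 52 (ptc1), and 3 of the 6 genes were called in ptc1. Leaving out single arrays gave 104 to 203 genes differing, the most without ptc1 array 1, and 0 to 4 list genes. Under these omissions 2 to 4 of the 6 genes differed between strains, and the calls that changed, for ARO9, ATF1 and ATF2, are given with those genes. The number of genes measured can change with the array left out, so nothing is read from these counts against each other. Motifs in promoters were not run, because no sequence was used here. With 2 arrays from 1 RNA pair per strain, spread between cultures was not measured.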
